A study of Rattus norvegicus with 10 samples.

Results

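The genes described here are 37 interferon-stimulated genes, followed in PCCl3 cells, a rat thyroid follicular line, after silencing of the forkhead transcription factor FoxE1. They were chosen by name as a module, and every probe whose transcript belongs to one of them was taken: 33 of the 37 genes had a probe on the array, out of 15154 genes that could be named, with 37 probes in all. No probe was matched to Parp12, Xaf1, Herc6 or Samd9l. Of the 33, Ifit2 and Ifi44l were too dim in every group to be tested, which left 31 genes, out of 10019 tested. A gene was tested where the scanner software had marked a probe, in either channel, as well above background on 3 or more of a comparison's 5 arrays, and a gene with several probes is represented by its brightest one.

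The siFoxE1 cells had been transfected with 25 nM of an siRNA pool against FoxE1, the siScramble cells with a non-targeting siRNA pool, and the wt cells were left untreated. RNA was isolated 48 h after transfection from 4 cultures of each condition, all in medium with TSH, insulin and donor calf serum. Each siFoxE1 culture was hybridised against wt on one 2-colour array and against siScramble on another, and each comparison had 1 further array on which the pooled RNA of the cultures was labelled with the dyes swapped, 10 arrays in all. siScramble and wt cells never shared an array, so siScramble over wt is the difference of the other log2 ratios of the same number. Since wt cells received neither siRNA nor transfection reagent, the reagent and the RNA cannot be told apart in that ratio, and no mock transfection was analysed here. The silenced line is a bulk transfected culture, so a larger response of a few cells and a small response of all cells cannot be told apart either.

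Interferons are secreted when cells sense foreign nucleic acid, and double-stranded RNA is among the ligands that do this through Toll-like receptors and the cytosolic sensors RIG-I and MDA5. Type I interferon then signals through JAK kinases to a complex that holds STAT2 and IRF9 and binds a DNA element named ISRE (interferon-stimulated response element) in front of the genes it activates. The products block viral replication at many steps, and others of them adjust the sensing itself. Short RNA duplexes and the lipids that carry them are known to start this response in some cell types.

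The promoter sequences of the members show this element. In RefSeq promoter entries of build GRCr8, which run from 250 bases before to 50 after a gene's start, 31 of the 37 members had an entry. The core of the element was searched as GAAANNGAAA on both strands, overlapping matches included, and it was found in 21 of the 31 members, against 3.92% of 33469 promoters of the same length. A second interferon-related motif, TTCNNNGAA, which reads the same on both strands and is the core of the GAS element of the interferon gamma response, was found in 8 of the 31 members, against 8.87% of all promoters. Stretches that hold the first motif are printed 5′ to 3′ in the direction of the gene, with the matched bases in capitals (TTTC on both sides where the match lies on the other strand). The first lines are from members whose siScramble over wt log2 ratio, given below, was above 0.5, and the last 4 are from members whose ratio lay near 0.
Ifi27, chr6:128355218-128355247, + strand: gagagctgggGAAATGGAAActtacctcat
Ifi27, chr6:128355133-128355162, + strand: gagagcagggGAAAAGGAAAcctctccttg
Oas1a, chr12:41330415-41330450, + strand: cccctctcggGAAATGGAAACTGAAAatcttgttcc
Rsad2, chr6:48788248-48788277, - strand: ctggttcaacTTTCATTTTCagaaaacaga
Cxcl10, chr14:15988816-15988842, + strand: cgctttgGAAAGTGAAActtaactcac
Irf7, chr1:205800073-205800102, - strand: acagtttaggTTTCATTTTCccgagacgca
Ifi44, chr2:243303847-243303876, - strand: gcacactgagTTTCAGTTTCatttcccagg
Bst2, chr16:18255073-18255108, - strand: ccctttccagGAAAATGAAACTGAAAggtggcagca
Isg20, chr1:142239957-142239986, + strand: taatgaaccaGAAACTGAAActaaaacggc
Psmb8, chr20:4657016-4657045, - strand: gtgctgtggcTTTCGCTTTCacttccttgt
Tap1, chr20:4668645-4668674, - strand: cggtggctgcTTTCGGTTTCttcttcctct
Tap2, chr20:4652318-4652347, - strand: gcagcgaagtGAAAGCGAAAgcccgggacc

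Each match is a description of letters and not of a bound site. In Oas1a and Bst2 the capitals are 2 overlapping matches, and in Ifi27 the matches start 84 and 169 bases before the gene's start. Among the 11 members with a siScramble over wt ratio above 0.5, 7 of the 9 with a promoter entry held the motif (the sequences above), and Mx1 and Irf9 held none within the window. Among the 20 other members tested, 11 of the 17 with an entry held it. Tap1 and Psmb9 lie head to head on chromosome 20, and their promoter entries overlap.

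The first question is how the module stood in siFoxE1 cells against each of the other conditions. Against wt, the 31 members had a median log2 ratio of 0.48, where the median of all 9879 genes tested was -0.00083, and 15 members were above 0.5 against 2.72% of all genes. Against siScramble, the median was 0.16, where that of 9715 genes was -0.0033, and 1 member, Isg15, was above 0.5, against 0.7% of all genes. In siScramble over wt, the median was 0.31, where that of 10019 genes was 0.0028, and 11 members were above 0.5, against 0.389% of all genes. In all 15 members above 0.5 against wt, the fitted siScramble over wt ratio was larger than the fitted siFoxE1 over siScramble ratio. In Mx2 the means of numbers 1 to 4 had the opposite order, 0.34 in siScramble over wt and 0.39 over siScramble. The siScramble over wt ratio and the siFoxE1 over siScramble ratio of a number share the same siScramble culture, and the difference between them was not tested for the group.

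**Figure D1:**
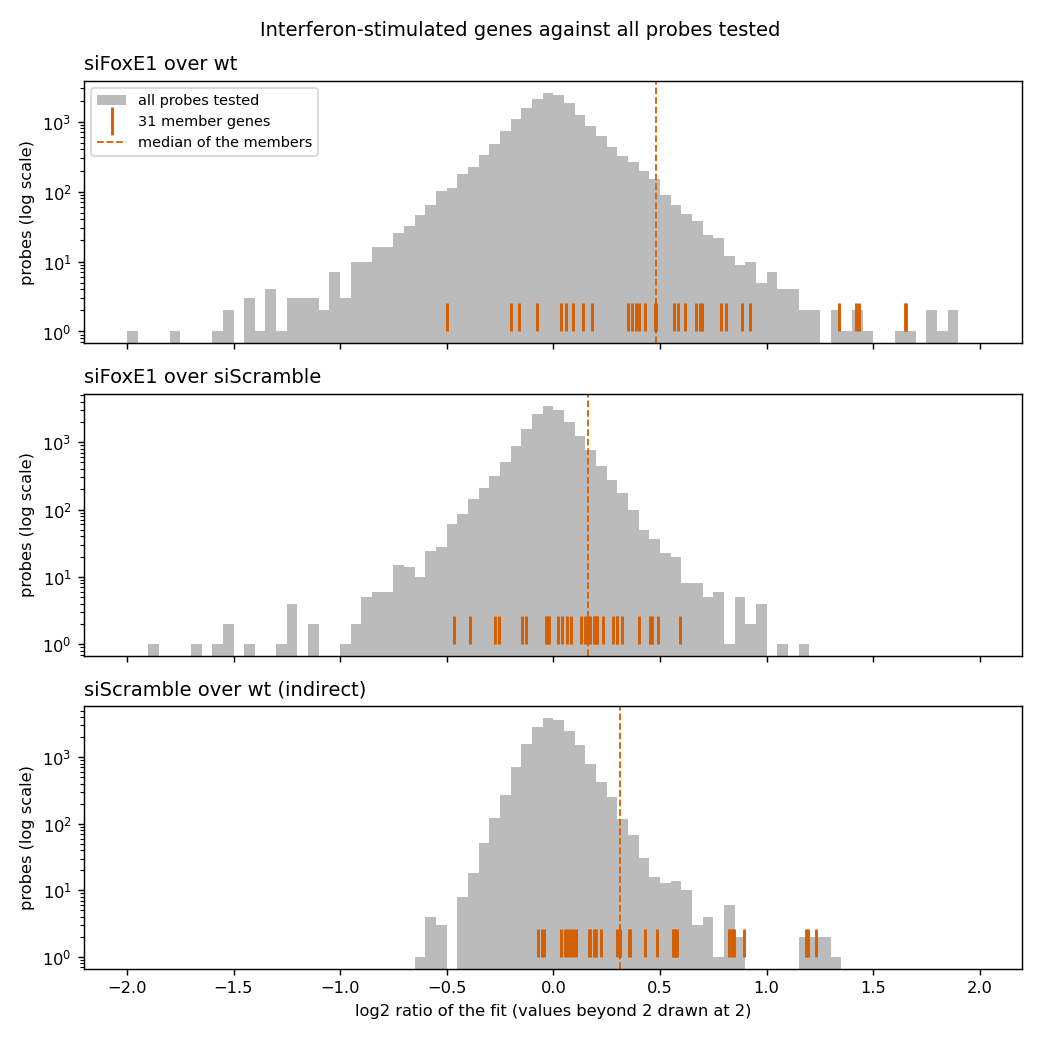
Log2 ratios of the fit for all probes tested (grey, number of probes on a log scale) and for the 31 member genes (orange ticks, with their median as a dashed line) in siFoxE1 over wt, siFoxE1 over siScramble and siScramble over wt. The members' medians stand at 0.48, 0.16 and 0.31, right of the bulk of the probes in each panel.

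The ratios were tested with limma, with Benjamini-Hochberg adjustment over all probes tested. In the fits without a block, of each siFoxE1 comparison on its own 5 arrays and of siScramble vs wt as a contrast over all 10, each with a dye term, no member passed an adjusted p of 0.05 in any of the 3 comparisons, where 0.0202%, 0.0926% and 0% of all genes passed in the higher direction in siFoxE1 vs wt, siFoxE1 vs siScramble and siScramble vs wt. At an unadjusted p under 0.05 there were 18, 14 and 12 members in the same order (17, 11 and 12 of them higher), against 21.8%, 17.2% and 3.73% of all genes in either direction. The level of a siFoxE1 culture on its 2 arrays differed by at most 0.38 on the log2 scale in any member. Between siFoxE1 cultures 1 to 4 it spanned 3.37 in Rsad2 but 0.09 in Dtx3l, so that bound alone does not show a pairing. The replicate numbers were taken to pair the arrays, since the study's design drew the same siFoxE1 culture into both comparisons. A fit of all 10 arrays together with the number as a block therefore stands beside the first one. For siFoxE1 over wt and over siScramble it changes both the number of arrays and the block, and fitting all 10 arrays with no block already called 14 members over wt and none over siScramble. With the block, 15 members passed as higher in siFoxE1 over wt, against 6.98% of all genes, and 1, Stat2, passed as lower, against 5.22%. None passed in siFoxE1 over siScramble, against 0.329% of all genes as higher, and 1, Ifi27, passed as higher in siScramble over wt, against 0.0399%. Where the difference of both arrays of a number was taken first and tested over the 4 numbers and the pool, 9 members passed as higher in siScramble over wt (Bst2, Cxcl10, Ifi27, Ifi44, Irf9, Isg15, Oas1a, Oasl and Parp14), against 0.898% of all genes.

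These counts depended on single cultures. Fits without a replicate left out its individual arrays only. They kept the pooled arrays, which still hold RNA of that culture. Of the 16 members called with the block against wt, 8 were lost without replicate 1 and 6 without replicate 4 (which left 8 and 10 members called), 2 were lost without replicate 3 and none without replicate 2. Those lost without replicate 1 were Bst2, Ifi35, Ifi44, Irf7, Mx1, Oasl, Psmb9 and Usp18, those lost without replicate 4 were Bst2, Ifi35, Ifi44, Irf1, Psmb9 and Stat2, and those lost without replicate 3 were Ifi35 and Psmb9. On the individual arrays alone 14 members were called with the block, and Bst2, Ifi35, Irf7 and Psmb9 were lost. Ifi27, Oas1a, Isg15, Irf9, Parp14 and Parp9 were called in each of these fits and also on the individual arrays alone. In siFoxE1 over wt and over siScramble, the individual arrays have 1 dye orientation. Their fits hold no dye term, so a dye effect of a probe stays in the ratio. The 9 members called from differences by number became 3 without replicate 1, 4 without replicate 4 and 1, Ifi27, without the pooled arrays. The siScramble over wt call of Ifi27 in the block fit was lost without replicate 1 (adjusted p = 0.237, limma), without replicate 3 (0.0583) and on the individual arrays alone (0.166). The pooled array holds RNA of the same 4 cultures and is no further sample, but with the dye term it carries as much weight as the 4 individual arrays together in each siFoxE1 fit on 5 arrays. In siScramble over wt it counts as 1 number of 5, so the fitted ratios of the 3 comparisons need not add up, while those of 1 number do.

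**Figure D2:**
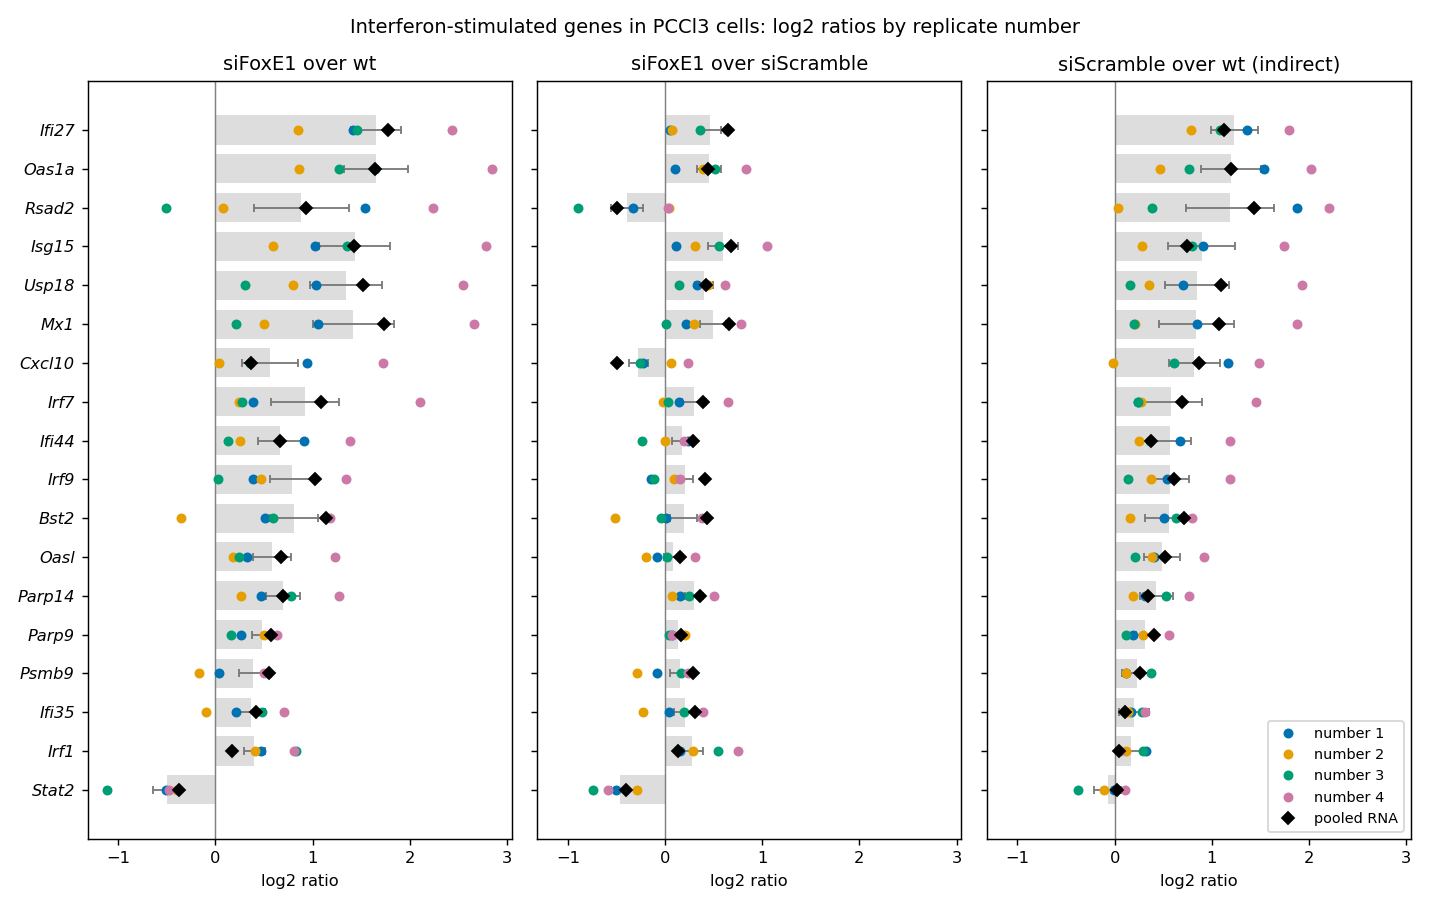
Log2 ratios of the 18 members given with their values, for replicate numbers 1 to 4 (circles) and pooled RNA (diamonds), in siFoxE1 over wt, siFoxE1 over siScramble and siScramble over wt. Grey bars are the fit without the block, and whiskers are its standard error. Of the 18, number 4 has the largest ratio over wt in the members at the top, and 11 of them have a bar above 0.5 in siScramble over wt, against 1 in siFoxE1 over siScramble.

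Values in single cultures are given for the 18 members that passed in any comparison with or without the block or were among the 12 with the largest siScramble over wt ratio. They are normalized log2 intensities of the gene's own probe, which can be compared between samples but not between genes, and the siFoxE1 value is the mean of the culture's 2 arrays. A 95% interval belongs to the fit without the block unless it says otherwise, and none is adjusted for the number of genes.

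Ifi27, whose product is a small interferon-induced membrane protein of organelles, had the largest fitted ratios over wt of the members tested, in siFoxE1 and in siScramble cells. Its level was 15.02, 15.07, 15.44 and 16.16 in siFoxE1 cultures 1 to 4, 14.95, 15.00, 15.05 and 15.48 in siScramble cultures 1 to 4, and 13.62, 14.23, 14.02 and 13.76 in wt cultures 1 to 4. All siFoxE1 and all siScramble cultures stood above all wt cultures, and siFoxE1 and siScramble overlapped. It was 3.15-fold higher in siFoxE1 than in wt (log2 ratio 1.65 ± 0.26 SE and adjusted p = 0.144 without the block, 1.67 ± 0.19 and adjusted p = 0.000899 with it, limma, 4 cultures each). These fits, like those below, also count the array of their pooled RNA as an observation of its own, unless the individual arrays alone are named. Between siScramble and wt it stood 2.35-fold higher in siScramble (log2 ratio 1.23 ± 0.24, limma adjusted p = 0.858 without the block and 0.0253 with it). Over siScramble, the log2 ratio of siFoxE1 was 0.46 with a 95% interval of 0.19 to 0.73, or 0.033 to 0.85 with the block, and its adjusted p was 0.195 without the block and 0.335 with it. Levels of all 4 siScramble cultures above those of all 4 wt cultures were seen in 4 members, Ifi27, Oas1a, Ifi44 and Bst2, against 0.938% of all genes. Levels of all 4 siFoxE1 cultures above all 4 wt cultures were seen in 9 members, against 3.29% of all genes, and above all 4 siScramble cultures in none, against 2.21%. Both of these siFoxE1 counts set Cy5 against Cy3.

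Oas1a and Oasl belong to the 2′-5′-oligoadenylate synthetase family, whose classical members make, on binding double-stranded RNA, the messenger that activates RNase L. Oas1a measured 9.09, 9.04, 9.49 and 10.82 in siFoxE1 cultures 1 to 4, 9.05, 8.68, 9.06 and 10.06 in siScramble cultures 1 to 4, and 7.38, 8.14, 8.14 and 7.89 in wt cultures 1 to 4. As with Ifi27, no wt culture reached the lowest siScramble or siFoxE1 culture. Oas1a was 3.14-fold higher in siFoxE1 than in wt (log2 ratio 1.65 ± 0.33, limma adjusted p = 0.204 without the block, 0.00516 with it), and siScramble over wt was 1.20 ± 0.31 (adjusted p = 0.975 without the block, 0.072 with it and 0.00648 from differences by number; limma). The siFoxE1 over siScramble ratio was 0.45, with a 95% interval of 0.17 to 0.74, or -0.10 to 1.01 with the block. Oasl read 6.47, 6.72, 6.93 and 8.01 in siFoxE1 cultures 1 to 4, 6.57, 6.87, 7.09 and 7.66 in siScramble cultures 1 to 4, and 6.14, 6.60, 6.51 and 6.84 in wt cultures 1 to 4. The groups overlapped, and culture 4 was the highest in each condition. Its ratio was 0.58 ± 0.20 over wt (limma adjusted p = 0.232 without the block, 0.0318 with it) and 0.083 over siScramble, with a 95% interval of -0.14 to 0.31, or -0.23 to 0.40 with the block. The Oas1 genes are near copies of each other, and which of them a probe binds was not tested.

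Mx1 and Mx2 are dynamin-like GTPases that trap viral nucleocapsids. Mx1 was at 8.41, 7.60, 7.59 and 10.12 in siFoxE1 cultures 1 to 4, 8.27, 7.24, 7.59 and 9.34 in siScramble cultures 1 to 4, and 7.28, 7.15, 7.36 and 7.45 in wt cultures 1 to 4. The wt cultures lay within a narrow band, the siScramble and siFoxE1 cultures spread above it, and only the lowest siScramble culture fell inside that band. The Mx1 ratio over wt was 1.42 ± 0.42 (limma adjusted p = 0.221 without the block, 0.0228 with it), its ratio over siScramble was 0.49 (95% interval 0.19 to 0.80, or -0.14 to 1.21 with the block), and siScramble over wt was 0.84 ± 0.38. Mx2 had smaller fitted ratios, 0.69, 0.32 and 0.35 in siFoxE1 over wt, siFoxE1 over siScramble and siScramble over wt. It did not pass in any of them (lowest limma adjusted p = 0.0863, with the block, over wt). By number, siFoxE1 over siScramble was 0.31, 0.42, 0.12 and 0.73 for numbers 1 to 4, and siScramble over wt 0.18, -0.16, 0.11 and 1.24. Only in number 4 was siScramble over wt clearly the larger of these 2 ratios.

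Rsad2, which encodes viperin, an enzyme that makes a chain-terminating nucleotide, varied widely between cultures of 1 condition. Its level was 8.91, 7.36, 7.77 and 10.74 in siFoxE1 cultures 1 to 4, 9.25, 7.34, 8.70 and 10.69 in siScramble cultures 1 to 4, and 7.37, 7.26, 8.25 and 8.51 in wt cultures 1 to 4. Cultures 1 and 4 were high in both transfected conditions, culture 2 was low in all 3 conditions, and the groups overlapped. By number, siFoxE1 over wt was 1.54, 0.08, -0.51 and 2.24 for numbers 1 to 4, siFoxE1 over siScramble -0.33, 0.043, -0.89 and 0.032, and siScramble over wt 1.88, 0.037, 0.38 and 2.21. The siScramble over wt ratio of the fit was 1.19 ± 0.45 (limma adjusted p = 0.975 without the block, 0.204 with it, 0.0511 from differences by number). Over siScramble, siFoxE1 had a log2 ratio of -0.39 (95% interval -0.78 to -0.0057, or -1.18 to 0.48 with the block, limma adjusted p = 0.342).

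Bst2, or tetherin, holds budding virus particles at the cell surface. The values of Bst2 were 12.63, 12.14, 12.85 and 13.17 in siFoxE1 cultures 1 to 4, 12.65, 12.62, 12.90 and 12.81 in siScramble cultures 1 to 4, and 12.10, 12.53, 12.25 and 11.98 in wt cultures 1 to 4. All siScramble cultures were above all wt cultures, while the siFoxE1 culture 2 was below its wt partner. The ratio over wt was 0.81 ± 0.25 (limma adjusted p = 0.225 without the block, 0.0242 with it). Without the pooled arrays it was 0.48 (adjusted p = 0.0763 with the block, limma). Over siScramble it was 0.19, with a 95% interval of -0.14 to 0.52, or -0.17 to 0.61 with the block, and -0.043 without the pooled array. In siScramble over wt it was 0.56 ± 0.25 and was above 0 for all 4 numbers (limma adjusted p = 0.204 with the block, 0.0106 from differences by number).

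Ifi44, a cytoplasmic protein with antiviral activity, measured 9.98, 9.48, 9.27 and 10.47 in siFoxE1 cultures 1 to 4, 9.76, 9.45, 9.46 and 10.26 in siScramble cultures 1 to 4, and 9.05, 9.25, 9.18 and 9.09 in wt cultures 1 to 4. The wt cultures spanned the narrowest range, and the siFoxE1 and siScramble cultures were all above it. Its ratio over wt was 0.67 ± 0.23 (limma adjusted p = 0.232 without the block, 0.0308 with it), where siScramble over wt was 0.57 ± 0.22 and siFoxE1 over siScramble 0.17 (95% interval -0.055 to 0.40, or -0.25 to 0.51 with the block). Its neighbour Ifi44l was not well above background in any channel of the 10 arrays.

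Isg15 is a ubiquitin-like modifier, and Usp18 is the protease that removes it and that also shuts down the type I interferon receptor. Isg15 gave 10.59, 11.59, 11.49 and 12.92 in siFoxE1 cultures 1 to 4, 10.56, 11.27, 10.92 and 11.87 in siScramble cultures 1 to 4, and 9.49, 11.02, 10.15 and 10.13 in wt cultures 1 to 4. Within each number the order was siFoxE1, siScramble, wt from high to low, although the groups overlapped between numbers. It was 2.7-fold higher in siFoxE1 than in wt (log2 ratio 1.43 ± 0.37, limma adjusted p = 0.218 without the block, 0.0116 with it). The other ratios were both above 0, with 0.59 in siFoxE1 over siScramble (95% interval 0.23 to 0.95, or -0.013 to 1.14 with the block, limma adjusted p = 0.204) and 0.90 ± 0.35 in siScramble over wt. The Usp18 level was 8.79, 8.40, 8.72 and 10.64 in siFoxE1 cultures 1 to 4, 8.51, 7.92, 8.66 and 10.07 in siScramble cultures 1 to 4, and 7.72, 7.63, 8.35 and 8.05 in wt cultures 1 to 4. Culture 4 of both transfected conditions stood more than 1 log2 unit above the other cultures of its condition. Usp18 had ratios of 1.34 ± 0.37 over wt (limma adjusted p = 0.218 without the block, 0.0209 with it), 0.40 over siScramble (95% interval 0.19 to 0.61, or -0.17 to 1.06 with the block) and 0.85 ± 0.33 in siScramble over wt. Its second probe gave 1.16, 0.35 and 0.73 for the same ratios and the same calls. On the individual arrays alone, without the block and with no dye term, Usp18 passed over siScramble (limma adjusted p = 0.0447, against 0.436 with the block).

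**Figure D3:**
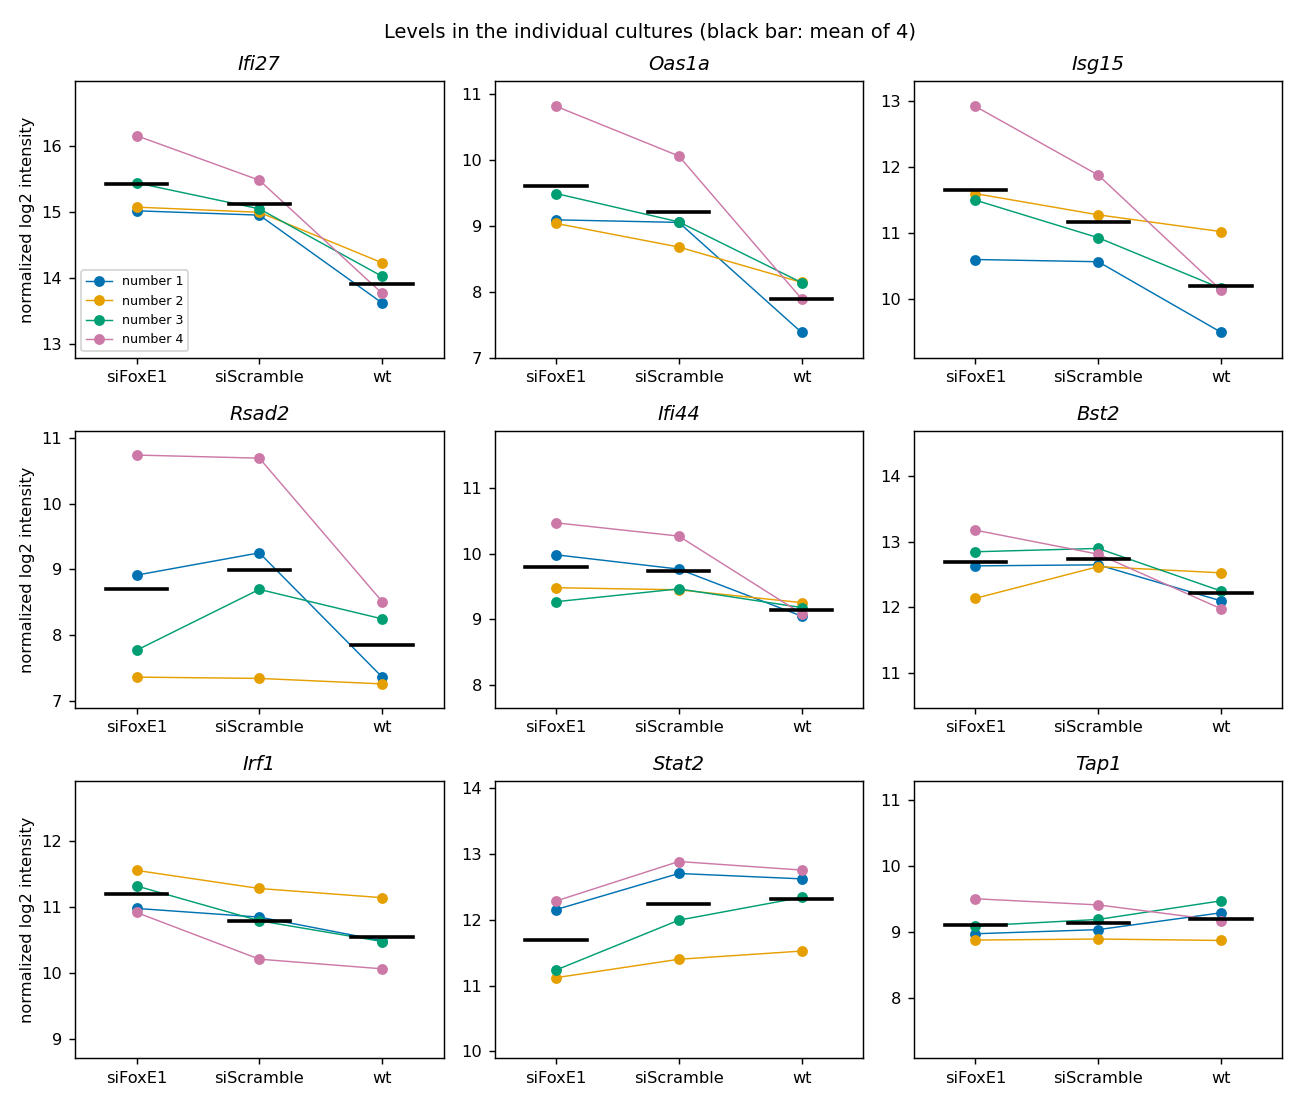
Normalized log2 intensity of 9 members in the individual cultures of the siFoxE1, siScramble and wt conditions, with lines joining cultures of a number and black bars at the mean of 4, where all panels span the same number of log2 units. For Ifi27 and Oas1a the siFoxE1 and siScramble cultures lie above all wt cultures, and for Stat2 the siFoxE1 culture is the lowest of each number. The siFoxE1 levels are from Cy5, and those of siScramble and wt from Cy3.

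Among the transcription factors, Irf7 is the main activator of type I interferon genes and Irf9 the DNA-binding part of the complex with STAT2, and both passed as higher over wt with the block. The levels of Irf7 were 10.79, 10.03, 10.80 and 12.25 in siFoxE1 cultures 1 to 4, 10.64, 10.03, 10.79 and 11.65 in siScramble cultures 1 to 4, and 10.41, 9.81, 10.50 and 10.10 in wt cultures 1 to 4. The wt culture was the lowest of each number, and culture 4 had by far the widest gap. By number, siScramble over wt was 0.24, 0.27, 0.25 and 1.45 for 1 to 4. The fitted siScramble over wt ratio of Irf7 was 0.58 ± 0.32. It became 0.36 without the individual arrays of replicate 4, with the pools, which hold its RNA, kept in. Over wt the siFoxE1 ratio was 0.92 ± 0.35 (limma adjusted p = 0.251 without the block, 0.0459 with it), and over siScramble 0.30. Irf9 stood at 8.15, 7.68, 7.99 and 9.36 in siFoxE1 cultures 1 to 4, 8.27, 7.59, 8.05 and 9.26 in siScramble cultures 1 to 4, and 7.78, 7.22, 8.02 and 7.97 in wt cultures 1 to 4. Here the siFoxE1 and siScramble cultures of a number were close to each other, and all siScramble cultures were above the wt culture of their number. Irf9 rose over wt with the block (log2 ratio 0.78 ± 0.17, limma adjusted p = 0.0196, against 0.218 without it), with 0.20 over siScramble (95% interval 0.018 to 0.39, or -0.15 to 0.58 with the block, and -0.0031 without the pooled array) and 0.57 ± 0.20 in siScramble over wt.

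Irf1 and Stat2 ran differently. Irf1, a factor that acts on many of the same promoters and responds strongly to interferon gamma, had levels of 10.98, 11.56, 11.32 and 10.92 in siFoxE1 cultures 1 to 4, 10.85, 11.28, 10.79 and 10.21 in siScramble cultures 1 to 4, and 10.49, 11.14, 10.48 and 10.06 in wt cultures 1 to 4. In every number the siFoxE1 culture was the highest of the 3 conditions. The Irf1 ratio was 0.40 ± 0.11 over wt (limma adjusted p = 0.218 without the block, 0.025 with it) and 0.28 ± 0.11 over siScramble (95% interval 0.02 to 0.54, or 0.045 to 0.47 with the block, limma adjusted p = 0.319), and siScramble over wt was 0.17. Over wt, the 4 individual arrays alone gave 0.63 for Irf1, and the dye-swapped pooled array 0.17. Over siScramble they gave 0.43 and 0.13. Whether a dye effect of the probe has a part in this was not tested. A second Irf1 probe gave 0.27 over wt, 0.10 over siScramble and 0.043 in siScramble over wt. With the block it did not pass over wt (limma adjusted p = 0.268) or over siScramble (0.575). Stat2, a part of the ISRE-binding complex, was the only member lower over wt with the block. Its values were 12.15, 11.12, 11.23 and 12.28 in siFoxE1 cultures 1 to 4, 12.70, 11.40, 11.99 and 12.88 in siScramble cultures 1 to 4, and 12.62, 11.52, 12.34 and 12.75 in wt cultures 1 to 4. The siFoxE1 culture was the lowest of its number in all 4 numbers. Its ratio was -0.50 ± 0.14 over wt (limma adjusted p = 0.218 without the block, 0.0184 with it) and -0.47 ± 0.089 over siScramble (95% interval -0.67 to -0.26, or -0.69 to -0.21 with the block, limma adjusted p = 0.139 and 0.108). In siScramble over wt Stat2 was at -0.07, with a 95% interval of -0.37 to 0.23. On the individual arrays alone, Stat2 and Irf1 passed over siScramble with the block, where no other member did. Without the block, Stat2 and Usp18 passed there. These fits have 1 dye orientation and no dye term. A dye effect of the probe and a siFoxE1 difference cannot be told apart in them.

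The PARP genes of the module encode ADP-ribosyltransferases, and Parp9 works with its partner Dtx3l, a ubiquitin ligase encoded next to it. Parp14 gave 10.78, 10.99, 10.98 and 11.38 in siFoxE1 cultures 1 to 4, 10.66, 10.87, 10.68 and 10.91 in siScramble cultures 1 to 4, and 10.29, 10.78, 10.26 and 10.06 in wt cultures 1 to 4. The lowest siFoxE1 culture was level with the highest wt culture, and the other siFoxE1 cultures were above it. It rose over wt with the block (log2 ratio 0.71 ± 0.13, limma adjusted p = 0.0115, against 0.218 without it), and had 0.30 over siScramble (95% interval 0.092 to 0.51, or 0.0019 to 0.56 with the block) and 0.43 ± 0.17 in siScramble over wt. Its dimmer second probe had 0.33 over wt, passed there too with the block, and had 0.045 over siScramble. Parp9 was measured at 7.46, 7.67, 7.28 and 7.58 in siFoxE1 cultures 1 to 4, 7.37, 7.41, 7.17 and 7.42 in siScramble cultures 1 to 4, and 7.22, 7.22, 7.18 and 7.04 in wt cultures 1 to 4. Every siFoxE1 culture was above every wt culture, by little. The Parp9 ratio over wt was 0.48 ± 0.10 (limma adjusted p = 0.217 without the block, 0.012 with it), against 0.13 over siScramble and 0.31 ± 0.093 in siScramble over wt. Dtx3l had 0.14 over wt and did not pass.

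Cxcl10, the chemokine that draws activated T cells through CXCR3, had levels of 8.02, 7.95, 7.96 and 9.98 in siFoxE1 cultures 1 to 4, 8.27, 7.95, 8.24 and 9.73 in siScramble cultures 1 to 4, and 7.07, 7.85, 7.59 and 8.28 in wt cultures 1 to 4. Culture 4 was the highest in each condition, and the groups overlapped. The siScramble over wt ratio was 0.82 ± 0.26 (limma adjusted p = 0.975 without the block, 0.149 with it, 0.0346 from differences by number). Like Rsad2, Cxcl10 had a siFoxE1 over siScramble ratio below 0 (-0.27, 95% interval -0.51 to -0.035, or -0.76 to 0.23 with the block, limma adjusted p = 0.292). The pooled array gave -0.50, and the 4 individual arrays alone gave -0.048, with 2 of the 4 above 0. Its ratio over wt, 0.57 ± 0.29, did not pass with the block (adjusted p = 0.138).

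The antigen processing members are the peptide transporter subunits Tap1 and Tap2 and the immunoproteasome subunits Psmb8 and Psmb9. Psmb9 measured 12.03, 12.46, 12.85 and 12.85 in siFoxE1 cultures 1 to 4, 12.13, 12.74, 12.70 and 12.63 in siScramble cultures 1 to 4, and 11.96, 12.63, 12.29 and 12.33 in wt cultures 1 to 4. The groups overlapped, and the siFoxE1 culture 2 lay below its siScramble and wt partners. Psmb9 had 0.39 ± 0.15 over wt (limma adjusted p = 0.25 without the block, 0.0475 with it), 0.15 over siScramble and 0.23 in siScramble over wt. Without the pooled arrays the Psmb9 ratio was 0.23 over wt and 0.011 over siScramble. Tap1, whose promoter entry overlaps that of Psmb9, was at 0.058, -0.035 and -0.043 for siFoxE1 over wt, siFoxE1 over siScramble and siScramble over wt, Tap2 at -0.20, -0.25 and 0.038, and Psmb8 at 0.18, 0.02 and 0.065. None of these 3 passed, and the 95% interval of siScramble over wt was -0.34 to 0.26 for Tap1, -0.26 to 0.34 for Tap2 and -0.13 to 0.26 for Psmb8. Ifi35, a leucine zipper protein of the interferon response, read 9.60, 9.55, 9.73 and 10.27 in siFoxE1 cultures 1 to 4, 9.66, 9.75, 9.52 and 9.96 in siScramble cultures 1 to 4, and 9.29, 9.68, 9.27 and 9.49 in wt cultures 1 to 4. The siFoxE1 culture 4 was the highest of all 12 cultures, and the other cultures overlapped. Its ratio over wt was 0.37 ± 0.14 (limma adjusted p = 0.26 without the block, 0.0481 with it), against 0.20 over siScramble and 0.20 in siScramble over wt.

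The other 13 members tested passed in no comparison, with or without the block. Their log2 ratios ran from -0.20 to 0.69 in siFoxE1 over wt, from -0.25 to 0.32 over siScramble, and from -0.054 to 0.36 in siScramble over wt. Ifitm3, which blocks virus entry, had 0.48, 0.062 and 0.36 in the same order, and Ifit3, a member of an RNA-binding family, 0.62, 0.23 and 0.30. Of the cytosolic receptors of the RIG-I family, Dhx58, which encodes LGP2, had 0.43, 0.19 and 0.19, and Ifih1, which encodes MDA5, 0.036, -0.13 and 0.11. Eif2ak2, the kinase PKR that halts translation on binding double-stranded RNA, had 0.35, 0.16 and 0.17. A second Eif2ak2 probe had 0.23, -0.0057 and 0.22. The RNA-editing enzyme Adar (0.093, -0.019 and 0.057), the exonuclease Isg20 (-0.16, -0.031 and -0.054) and the GTPase Gbp2 (-0.077, -0.15 and 0.094) lay near 0 against wt. Number 3 gave the lowest ratio for Isg20 and Gbp2, as for Rsad2, and siFoxE1 over wt was 0.09, -0.33, -0.97 and -0.19 for Isg20 and 0.10, 0.098, -1.27 and -0.11 for Gbp2 in numbers 1 to 4.

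Replicate number 4 carried the largest ratios of the module. The median of the 31 members in siFoxE1 over wt was 0.32, 0.098, 0.21 and 1.07 for numbers 1 to 4 and 0.64 for the pooled RNA, and in siScramble over wt it was 0.22, 0.14, 0.16 and 0.73, with 0.38 for the pools. Over siScramble it was 0.053, 0.043, 0.017 and 0.23, with 0.25 for the pools, while the median of all genes stayed between -0.023 and 0.012 on every array and difference. Of siScramble over wt ratios, 24, 23, 23 and 31 of the 31 members were above 0 in numbers 1 to 4. All 15 members above 0.5 over wt had their largest ratio over wt, and their largest siScramble over wt ratio, in number 4. In these 15, culture 4 held the highest siFoxE1 level of 15 members and the highest siScramble level of 14, but the lowest wt level of 3. Without the individual arrays of replicate 4, the median of the members was 0.41 in siFoxE1 over wt, 0.13 over siScramble and 0.22 in siScramble over wt. The pooled arrays stayed in these fits and hold RNA of culture 4, so its part was not fully removed. Ratios above 0 for all 4 numbers were found for 15 members in siFoxE1 over wt, 10 in siFoxE1 over siScramble and 17 in siScramble over wt, against 17.1%, 15.7% and 13.3% of all genes. The siFoxE1 counts rest on arrays of 1 dye orientation, for members and for all genes.

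**Figure D4:**
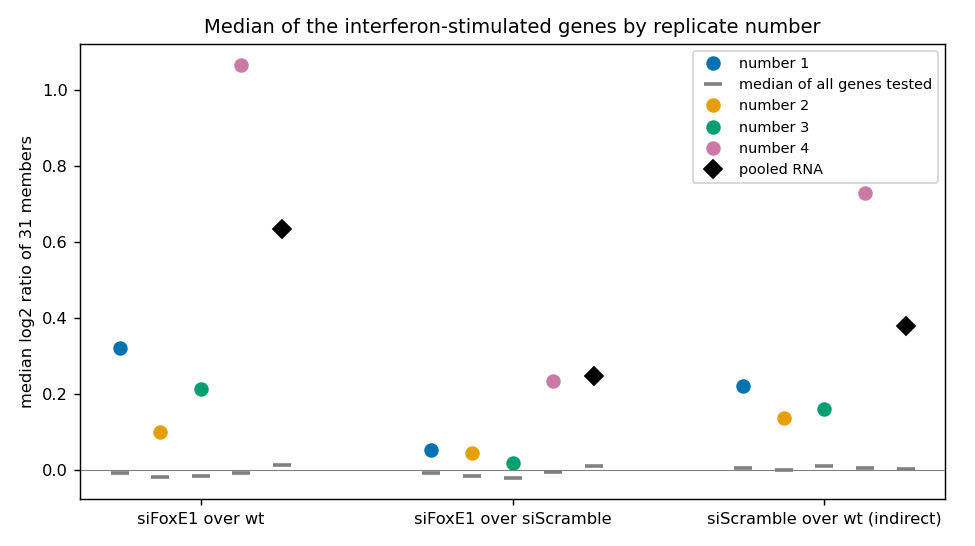
Median log2 ratio of the 31 members by replicate number (circles) and in pooled RNA (diamonds) for siFoxE1 over wt, siFoxE1 over siScramble and siScramble over wt, with the median of all genes tested as grey dashes. Number 4 stands at 1.07 over wt and 0.73 in siScramble over wt, and the median of all genes lies near 0 throughout.

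A longer list of interferon-stimulated genes outside the module, with 34 genes tested, was read in the same way. With the block, 14 of the 34 rose in siFoxE1 over wt and none fell, against 6.98% of all genes as higher. In siScramble over wt 1 of them, Ccl5, rose with the block, and 8 rose from differences by number (Ccl5, Rtp4, Lgals9, Oas1k, Oasl2, Sp110, Oas1i and Lgals3bp), against 0.898% of all genes. None passed over siScramble with the block, nor did any pass in a comparison without it. The list's median was 0.25 over wt, 0.11 over siScramble and 0.11 in siScramble over wt. Its largest siScramble over wt ratios were those of Lgals9, a galectin, at 1.32, of Oas1k, an oligoadenylate synthetase, at 1.28, and of Rtp4, a chaperone of membrane receptors, at 1.23, and their ratios over siScramble were 0.48, 0.50 and 0.57. The chemokine gene Ccl5 had 0.97 over wt, 0.21 over siScramble and 0.84 ± 0.17 in siScramble over wt (limma adjusted p = 0.0253 with the block). The others that rose over wt were Oasl2, Oas1i, Sp110, Lgals3bp, Phf11, Tmem140, Isg20l2, Gbp5, Cmpk2 and Irgm. Among them, Tmem140 (0.61 over siScramble, 0.28 in siScramble over wt), Cmpk2 (0.35 and 0.18) and Irgm (0.31 and 0.11) had the larger ratio over siScramble. Oasl2, Oas1i, Sp110, Lgals3bp and Gbp5 had the larger ratio in siScramble over wt. Of 13 class I antigen presentation genes outside the module, 7 rose over wt with the block (Tapbp, Psme1, Psme2 and the class I heavy chain genes RT1-A1, RT1-A2, RT1-S3 and RT1-CE5), with a list median of 0.39 over wt, 0.16 over siScramble and 0.14 in siScramble over wt. Tapbp, or tapasin, had 0.54, 0.18 and 0.34 in the same order, Psme2 0.39, 0.15 and 0.28, and Calr, a chaperone of the endoplasmic reticulum, -0.93, -0.67 and -0.38 without passing.

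Upstream of the module, the interferon genes, their receptors and the sensors were measured. Of 5 interferon genes with a probe, 4 were not tested for low signal, among them Ifnb1, which was well above background in 1 of 10 siFoxE1 channels, 1 of 5 siScramble channels and 1 of 5 wt channels, and Ifng, in none. Ifna4 had -0.13, -0.10 and 0.0059 in siFoxE1 over wt, siFoxE1 over siScramble and siScramble over wt. Among 16 interferon receptor and JAK-STAT genes, 2 fell over wt with the block, the phosphatase gene Ptpn11 (-0.47) and the receptor chain gene Ifngr2 (-0.31), and none rose, against 5.22% of all genes as lower. Il10rb, a chain of the lambda interferon receptor, was at -0.15 in siScramble over wt. None of 10 genes for nucleic acid sensors and their adaptors passed, with medians of 0.087, 0.10 and 0.011 for the 3 ratios. Sting1 had 0.17, Mavs 0.13 and Myd88 -0.10 in siScramble over wt.

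Foxe1 itself and Cd74, the class II invariant chain, serve as points of reference. Foxe1 fell in siFoxE1 over wt (-0.52, -0.57, -0.37 and -0.65 for numbers 1 to 4 and -1.16 in the pool) and over siScramble (-0.77, -0.49, -0.66 and -0.41, and -0.98), with limma adjusted p = 0.0389 and 0.0201 without the block. Foxe1 stood at 0.0087 in siScramble over wt (95% interval -0.19 to 0.21). Cd74 rose over wt (1.23 ± 0.12, limma adjusted p = 0.0485) and over siScramble (1.17 ± 0.08, adjusted p = 0.00224), and siScramble over wt was 0.058 (95% interval -0.20 to 0.31). Among the markers of the line, 12 of 13 thyroid follicular genes were tested and their summed log2 level was 16.58 to 16.95 in siFoxE1 cultures, 16.65 to 16.92 in siScramble cultures and 16.58 to 17.03 in wt cultures. The sums hide opposite changes, since with the block 4 of the 12 passed as higher and 4 as lower over wt, and 1 as lower over siScramble. Of 14 leukocyte markers with a probe, 9 were tested, with summed log2 levels of 9.90 to 10.03, 9.86 to 10.03 and 9.91 to 10.02 in the siFoxE1, siScramble and wt cultures. The pan-leukocyte gene Ptprc and Itgam were not well above background in any siScramble or wt channel. By contrast, Cd68, Cd14, Lyz2, Nkg7 and a probe each of Csf1r and Aif1 were well above background in every channel. None of the 9 passed with the block, and without it Cd68, a lysosomal gene of macrophages, fell over siScramble (-0.73 ± 0.062, limma adjusted p = 0.00721). In 12 fibroblast and endothelial markers with a probe, 5 were tested, with sums of 9.46 to 9.79, 9.44 to 9.73 and 9.42 to 9.59. Dcn, Lum, Pecam1 and Tek were not well above background in any channel, while Col1a2, Pdgfra, Cdh5 and a probe of Col1a1 were in every channel. The part of these markers in the ratios of the module was not tested.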

How the data were processed

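RNA of siFoxE1, siScramble and wt cells was compared on 2-colour Agilent rat arrays, and the study's methods describe 4 independent silencing experiments. The direction of each ratio was taken from the dyes in the labels (siFoxE1 in Cy5 on individual arrays and in Cy3 on the dye swaps), since the study's design drawing assigns them differently. The scanner files deposited by the authors hold spot and local background intensity per channel, made with Feature Extraction 10.7.3.1, and not yet normalized. Their log10 ratio of processed signals, deposited beside them, was an alternative, as were the authors' deposited log2 ratios, made with limma 3.2.3 per the labels. The direction of those log2 ratios was found by setting each array against its scanner values, and their medians lay between -0.0053 and 0.0085.

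Median signals were background corrected in limma 3.58.1 (R 4.3.3) with normexp and an offset of 50, normalized with loess within arrays and with quantiles of the average intensities between arrays. Control spots and outlier spots had weight 0, and spots of a probe were averaged. Probes well above background on at least 3 of 5 arrays in either channel were tested with lmFit and eBayes with a dye term, each siFoxE1 comparison on its own 5 arrays and siScramble vs wt as a contrast over all 10, with Benjamini-Hochberg adjustment over all tested probes and a threshold of 0.05. Deviations of arrays with the same replicate number correlated at 0.40 to 0.76 (different numbers -0.65 to 0.51). The siScramble array of number 4 correlated at 0.40 with the wt array of number 4 and at 0.51 with that of number 3. The study draws the same siFoxE1 cultures in both comparisons, so the number was also used as a block (duplicateCorrelation, 0.51). Probes were named through their transcript accession, and a gene is represented by its probe of highest mean intensity. Values in every culture are given for members past the threshold in any comparison with or without the block and for the 12 with the largest siScramble over wt ratio. The members and all gene lists were chosen with earlier results of these data known. Depth has no meaning for arrays, whose number limits the precision. Outlier spots made up 1.25% to 1.60% of each array, no spot was saturated, and 56.8% to 68.2% of spots were well above background per channel. Scripts were tested on simulated data. Some genes of the lists are not reported here.

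Alternatives were other background corrections, normalizations, filters, dye and slide terms, probe choices, the deposited ratios, and leaving out each replicate. Slide 2 held 1 individual siScramble array and the siScramble pool, so no value within slides was possible for siFoxE1 vs wt. Coordinates are those of RefSeq on GRCr8, not of the older build behind the array annotation.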

Additional observations from a re-analysis of the deposited data

Results flagged for a closer look

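In 4 of 54 groups of 4 replicate numbers, 1 number lay far from the others by Dixon's criterion, which chance meets in about 1 in 20 groups. The log2 ratio of Irf7 in siFoxE1 over wt was 2.11 in number 4, where the other numbers lay between 0.25 and 0.38. Irf7 in siScramble over wt was 1.45 in number 4, where the others lay between 0.24 and 0.27. Oasl in siFoxE1 over wt was 1.23 in number 4, where the others lay between 0.18 and 0.32. Stat2 in siFoxE1 over wt was -1.12 in number 3, where the others lay between -0.51 and -0.39.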

How the results depend on the processing

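The number of members called differed between the fits. In siFoxE1 vs wt it was 0 in the fit given first, 14 in a fit of all 10 arrays with no block, 16 in that fit with the replicate block, 8 with no dye term, 3 on the individual arrays alone (14 with the block), and, leaving out 1 replicate, 0 with no block and 8, 19, 15 and 10 with it for replicates 1 to 4. In siFoxE1 vs siScramble it was 0, against 4 with no dye term (Isg15, Oas1a, Stat2 and Usp18) and 1 on slide 1 alone (Usp18). It was 2 on the individual arrays alone (Stat2 and Usp18, or Irf1 and Stat2 with the block), and 0 to 1 leaving out 1 replicate. Here slide 1 alone and the individual arrays alone had no dye term, since their arrays have 1 dye orientation. In siScramble vs wt it was 0, against 1 with the replicate block, 9 from differences by number, 1 from differences on the individual arrays alone, and 0 to 11 leaving out 1 replicate. Under all other alternatives run, which covered background correction, normalization, filters, moderation, probe choice, the slide as a block and the deposited ratios, no member was called.

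The median ratio of the members over siScramble was 0.051 on the individual arrays alone, with or without the block, where it was 0.16 with the pools. Leaving out 1 replicate, the median was 0.40 to 0.62 over wt, 0.13 to 0.19 over siScramble and 0.22 to 0.39 in siScramble over wt. All fits that leave out 1 replicate kept the pooled arrays, which hold its RNA, unless the individual arrays alone are named. Over siScramble, Irf9 (-0.0031) and Bst2 (-0.043) changed sign on the individual arrays alone, with or without the block, and Cxcl10 (0.022), Bst2 (-0.043) and Psmb9 (-0.041) did so on slide 1 alone. Stat2 in siScramble over wt was 0.0063 without replicate 3 and -0.11 to -0.061 without each of the others. The cause of these shifts was not tested. The alternatives with the block by individual array and with a replicate left out of it, quantiles over both channels, and the Cy3 route were chosen after seeing the data. Ifit2, Ifi44l and most interferon genes were too near background to be measured.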

Other observations

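Other lists were counted in the same fits, in which 6.98% of all genes passed as higher and 5.22% as lower over wt with the block. Of 12 NF-kB target genes tested, 2 rose in siFoxE1 over wt with the block, the chemokine gene Ccl2 (0.28) and the inhibitor gene Nfkbie (0.38), and 3 fell, Cflar (-0.57), Nfkb2 (-0.30) and Nfkbib (-0.26). None of the 12 passed over siScramble or in siScramble over wt, where the list's median was -0.00083. Lcn2, which encodes a siderophore-binding protein, had log2 ratios of -0.77 in siFoxE1 over wt, -0.33 over siScramble and -0.42 in siScramble over wt, and passed in none of them.

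Of 7 genes of the RNA interference machinery tested, which take up and process small RNAs, 1 fell in siFoxE1 over wt with the block, Tsnax (-0.28), a subunit of the complex that clears cleaved siRNA strands. The list's median was -0.053 in siFoxE1 over wt, -0.081 over siScramble and -0.10 in siScramble over wt.

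A probe that carries the name Samd9l only in the study's own supplementary table, and was therefore kept out of all counts, had log2 ratios of 0.72 in siFoxE1 over wt, 0.18 over siScramble and 0.52 in siScramble over wt. Its ratio over wt was 0.72, 0.083, -0.091 and 1.29 for numbers 1 to 4.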
